A study of Mus musculus with 319 samples.

Results

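Thymic tuft cells, which make the cytokine IL-25, were examined for 10 genes that encode receptor chains for type 2 cytokines and the IL-17 family, namely Il17rb, Il17ra, Il4ra, Il13ra1, Il13ra2, Il2rg, Il9r, Crlf2, Il1rl1 and Il7r. The genes were chosen by name, from what the chains are known to bind, and all 10 were found among the 48795 gene entries of the count tables, spike-ins left out. Of the 10, 3 were found in most cells in nearly every set (Il17rb, the specific chain for IL-25, and the pair Il4ra and Il13ra1), 3 were found in a minority of cells (Il2rg, Il9r and Il17ra), and 4 were at or near 0 (Crlf2, Il7r, Il1rl1 and Il13ra2). The chains that complete the IL-25 receptor were rarely seen in the same cell (7.641% of 301 cells), whereas the chains of the type II IL-4 and IL-13 receptor were found together in 38.21%. Taken singly, Il17rb was found in 70.76% of cells, Il17ra in 9.635%, Il4ra in 65.12% and Il13ra1 in 53.16%.

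The wells came from 6-week-old mice of mixed sex, labelled naive, with 1 sample of 5 weeks. Wild-type (WT) mice were labelled C57BL/6.Il25 with the genotype Flare25/Flare25, and the other mice C57BL/6.Il25.Aire with the genotype Flare25/Flare25 Aire-/-, so that every group carried 2 copies of Flare25, a reporter of the Il25 gene. Cells were sorted 1 to a well as CD45-, CD11c-, EPCAM+, MHCIIlo and Flare25+, and polyadenylated RNA was made into full-length libraries by Smart-seq2, which adds no molecular identifiers. After filtering, the WT set called June5 held 29 cells, the WT set called June29 held 87, WT batch 2 held 89, and 96 cells were labelled Aire-/- and belonged to batch 2 as well. Thymi were pooled and no animals are named, so each set was 1 sample: no test across animals could be made, and every interval below is a 95% interval for counting error only. Median gene reads per cell were 539655, 1150167, 566923 and 638298 in June5, June29, WT batch 2 and Aire-/-.

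The sorted cells carried the defining genes of tuft cells. Between 16 and 17 of 18 tuft genes had 5 or more reads in at least 50% of the cells of each set, among them Pou2f3, the lineage's transcription factor, in 69.66% to 83.33% of cells. The gate removed CD45+ cells, yet the CD45 gene Ptprc had 5 or more reads in 24.14%, 29.89%, 29.21% and 28.12% of cells in June5, June29, WT batch 2 and Aire-/-. Laptm5 and Rac2, usually taken as leukocyte genes, were found in 70.11% to 86.46% of cells of every set. Aire itself stood at 7.835, 11.16, 18.92 and 152.7 CPM (reads of the gene scaled to all gene reads of the set) in the same order. The allele was not described in the sources used here, so a count over the whole gene does not check the label, and the set is called "labelled Aire-/-".

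In textbook terms, IL-25 (also named IL-17E) binds IL-17RB, which signals together with IL-17RA through the adaptor ACT1 (gene Traf3ip2). IL-4 binds IL-4R alpha, which pairs either with the common gamma chain (Il2rg, type I receptor) or with IL-13R alpha 1 (type II receptor, which also binds IL-13), and both signal through Janus kinases and STAT6. IL-13R alpha 2 is a decoy chain, the gamma chain also completes the receptors for IL-7 and IL-9, TSLP is bound by CRLF2 with IL-7R alpha, and IL-33 by ST2 (Il1rl1) with IL1RAP. In the gut, tuft cells release IL-25 to type 2 innate lymphoid cells, and IL-4 and IL-13 act back on the epithelium to expand tuft cells.

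Promoter windows are shown for the 3 receptor genes found in most cells, because the results below turn on these members. Each window runs from 250 bases before to 50 bases after a RefSeq start in build GRCm38.p6, 5′ to 3′ on the gene's strand, and 9 of the 10 members had a window. Capitals mark matches, on either strand, to ATGNAAAT (the octamer bound by POU factors, of which ATGCAAAT is the canonical form), TGANTCA (the AP-1 site), TTCNNNNGAA or TTCNNNGAA (STAT sites).

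Il17rb, chr14:30008847-30009146, minus strand: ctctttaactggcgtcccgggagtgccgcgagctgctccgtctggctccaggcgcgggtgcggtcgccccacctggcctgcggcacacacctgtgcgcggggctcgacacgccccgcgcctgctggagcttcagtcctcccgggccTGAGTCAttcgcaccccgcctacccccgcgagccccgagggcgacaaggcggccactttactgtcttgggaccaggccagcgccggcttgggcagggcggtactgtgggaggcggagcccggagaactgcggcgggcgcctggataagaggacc

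Il4ra, chr7:125552021-125552320, plus strand: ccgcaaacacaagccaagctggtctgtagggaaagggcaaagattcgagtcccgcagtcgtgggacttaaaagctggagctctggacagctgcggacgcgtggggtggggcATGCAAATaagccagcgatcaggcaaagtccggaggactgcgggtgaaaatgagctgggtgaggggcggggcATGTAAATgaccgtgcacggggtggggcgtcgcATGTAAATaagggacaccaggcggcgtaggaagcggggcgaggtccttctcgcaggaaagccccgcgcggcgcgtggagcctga

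Il13ra1, chrX:36111858-36112157, plus strand: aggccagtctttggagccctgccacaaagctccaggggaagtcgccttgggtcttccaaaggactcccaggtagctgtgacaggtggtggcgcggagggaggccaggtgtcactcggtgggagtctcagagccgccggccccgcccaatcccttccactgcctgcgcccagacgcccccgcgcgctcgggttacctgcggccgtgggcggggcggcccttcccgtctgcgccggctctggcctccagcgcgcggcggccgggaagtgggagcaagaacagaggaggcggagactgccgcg

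The Il4ra window held ATGCAAAT once and ATGTAAAT at 2 further places, all on the gene's strand, whereas Il17rb held a single TGAGTCA and Il13ra1 held none of the motifs searched. Of all 32851 windows of this length, 5.67% held ATGNAAAT at least once and 15 windows (0.0457%) held it 3 times or more, and 1.74% held ATGCAAAT. For the other motifs the shares were 7.81% for TGANTCA, 6.95% for TTCNNNNGAA and 8.3% for TTCNNNGAA. The motifs were chosen after the Il4ra window had been read, so the shares are descriptions, and a match is not a bound site. These 3 windows were also rich in CpG, with 32 CpG in Il17rb, 25 in Il4ra and 28 in Il13ra1 against a median of 7 over all windows. The rarer members Il2rg (3), Il9r (5), Il7r (1) and Il13ra2 (1) had few, but the window of the seldom found Crlf2 had 31.

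Il17rb, the chain that confers binding of IL-25, was the highest of the 10 genes per kilobase of exon in June5, June29 and the cells labelled Aire-/-. It lies at chr14:29996135-30008896 on the minus strand (GRCm38, GENCODE M21). Summed over a set, its level was 382.1 CPM (374.5 to 389.9) in June5, 342.2 (338.8 to 345.7) in June29, 246.6 (242.6 to 250.7) in WT batch 2 and 221.6 (218.1 to 225) in Aire-/-. Cells with 5 or more reads, called positive here, were 22 of 29 (75.86%), 68 of 87 (78.16%), 57 of 89 (64.04%) and 66 of 96 (68.75%). Per cell, Il17rb ran from 0 to a median of 269.1 and a maximum of 1673.6 CPM in June5, from 0 to 204.8 to 3014.7 in June29, from 0 to 62.21 to 4421.0 in WT batch 2 and from 0 to 93.4 to 2806.6 in Aire-/-. The ranges of all 4 sets overlapped almost entirely, and cells without a read were found in each. Of its exon bases, 3.8% are shared with Actr8 on the opposite strand.

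Il17ra, the chain that IL-17RB needs to signal and that also serves IL-17A, IL-17C and IL-17F, was far scarcer than its partner. It spans chr6:120463247-120487559 and has the longest exon sequence of the 10, 8.662 kb. June5 had no Il17ra read in 29 cells, which allows up to 10.34% of cells with a read, not of cells expressing the gene, and a level of up to 0.1199 CPM. June29 reached 28.15 CPM (27.16 to 29.16) with 14 of 87 positive cells (16.09%), WT batch 2 10.02 CPM (9.215 to 10.87) with 6 of 89 (6.742%) and Aire-/- 10.63 CPM (9.893 to 11.41) with 9 of 96 (9.375%). Where it was found it was not faint: the median over positive cells was 87.17, 143.2 and 70.08 CPM in these 3 sets. Positive cells were more deeply sequenced than the others in June29 (median 1762336.5 against 1110328 gene reads) and Aire-/- (818163 against 632800), but not in WT batch 2 (554708.5 against 566923). Per kilobase of exon, Il17rb exceeded Il17ra in each set that had Il17ra reads, with 92.32 against 3.25 CPM per kb in June29, 66.52 against 1.157 in WT batch 2 and 59.77 against 1.227 in Aire-/-.

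Il4ra, the chain shared by both IL-4 receptors, was found in 58.43% to 68.97% of cells of every set. The gene lies at chr7:125552120-125579474 on the plus strand. It stood at 220.8 CPM (215 to 226.7) in June5, 184.3 (181.8 to 186.9) in June29, 243 (239 to 247.1) in WT batch 2 and 279.2 (275.4 to 283.1) in Aire-/-. Positive cells were 20 of 29 (68.97%), 58 of 87 (66.67%), 52 of 89 (58.43%) and 66 of 96 (68.75%). Per cell the median was 68.79, 55.93, 52.64 and 158.1 CPM in the same order, with lows of 0 and highs of 1456.5, 1434.3, 3463.7 and 1602.6. The median was highest in the cells labelled Aire-/-, within ranges that overlapped throughout.

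Il13ra1, which completes the type II receptor and maps to chrX:36112110-36171259, varied more between wild-type sets. Its level was 250.3 CPM (244.1 to 256.6) in June5, 170.8 (168.4 to 173.3) in June29, 290.2 (285.8 to 294.7) in WT batch 2 and 206.6 (203.3 to 209.9) in Aire-/-. Positive cells were 19 of 29 (65.52%), 33 of 87 (37.93%), 51 of 89 (57.3%) and 57 of 96 (59.38%). The median cell had 53.02, 1.196, 22.41 and 87.46 CPM, and the highest cell 1036.1, 1414.2, 3802.1 and 1296.5. June29 stood lowest in the share of cells, although it was the most deeply sequenced set. With a single read as positive the shares lay closer, 62.1% in June29 against 79.3% in June5, 69.7% in WT batch 2 and 68.8% in Aire-/-. After every cell was thinned to 231697 reads its share was 31.8% against 69.6% in June5, 49.4% in WT batch 2 and 60.7% in Aire-/-. Il13ra2, the decoy chain for IL-13 (chrX:147383476-147429192), had 3 reads in a single June29 cell and none in the other sets, and 0 of 301 positive cells allow up to 0.9967% of cells with 5 or more reads.

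**Figure D1:**
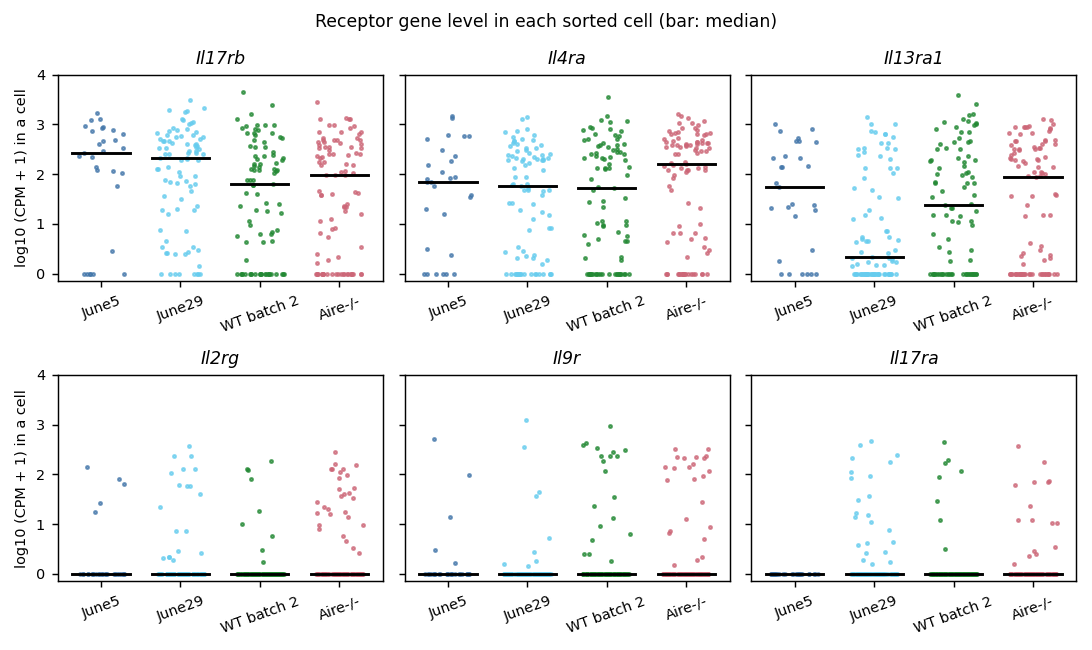
Level of 6 receptor genes in every kept cell, as log10 of CPM with 1 added (vertical axis), by set (horizontal axis), with 1 point per cell and a bar at the median. Il17rb, Il4ra and Il13ra1 have medians above 0 in every set, with June29 lowest for Il13ra1 (1.196 CPM), and Il2rg, Il9r and Il17ra have a median of 0 in every set with a minority of cells far above it.

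Il2rg encodes the common gamma chain of the receptors for IL-2, IL-4, IL-7, IL-9, IL-15 and IL-21 and was found in a minority of cells (chrX:101264378-101268255). It stood at 22.79 CPM (20.95 to 24.74) in June5 with 5 of 29 positive cells (17.24%), at 20.15 (19.31 to 21.01) in June29 with 12 of 87 (13.79%), at 9.18 (8.412 to 9.999) in WT batch 2 with 5 of 89 (5.618%) and at 17.94 (16.98 to 18.95) in Aire-/- with 24 of 96 (25%). A few cells carried much of it: the cell with most reads gave 72.63% of the June5 reads, 28.46% in June29, 46.2% in WT batch 2 and 23.5% in Aire-/-. Of the exon bases of Il2rg, 30.5% are shared with the read-through gene Gm20489 on the same strand, so its level is uncertain.

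Il9r, the specific chain for IL-9 (chr11:32187541-32200279), was low in the wild-type sets of batch 1 and higher in both sets of batch 2. It stood at 8.755 CPM (7.633 to 9.994) in June5, 8.349 (7.816 to 8.909) in June29, 41.14 (39.49 to 42.83) in WT batch 2 and 30.5 (29.24 to 31.8) in Aire-/-. Positive cells were 3 of 29 (10.34%), 5 of 87 (5.747%), 15 of 89 (16.85%) and 17 of 96 (17.71%). In WT batch 2 the positive cells were spread over both plates, 7 of 48 and 8 of 41, with a median of 229.7 CPM in a positive cell and a maximum of 950.6. In June29, by contrast, 1 cell held 47.21% of all Il9r reads.

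The remaining chains were close to absent at this depth. Crlf2, the TSLP-binding chain (chr5:109554709-109558993), had 13 positive cells among 301, with 5 to 87 reads each, and stood at 1.319, 0.2652, 3.962 and 1.41 CPM in June5, June29, WT batch 2 and Aire-/-. Il1rl1, which encodes the IL-33 receptor ST2 (chr1:40429570-40465415), had 4 positive cells with 16, 9, 7 and 5 reads. Of those cells, 3 were labelled Aire-/- and 1 belonged to June29.

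Il7r, the alpha chain for IL-7 and TSLP (chr15:9505788-9530176), had a different pattern, with few cells but many reads in them. Of the 5 positive cells, 3 in June29 stood at 610.6, 337.9 and 135.4 CPM, 1 in WT batch 2 at 124.8 and 1 in Aire-/- at 23.87, and only 2 further cells held a read, 1 each. All 5 were also positive for Il2rg, with 246, 627, 69, 243 and 305 reads in the same order. Each had 5 or more reads of 5 of 5 general leukocyte genes (Ptprc, Cd52, Coro1a, Laptm5 and Rac2), and 4 of the 5 had at least 2 markers of thymocytes, B cells or dendritic cells, up to 8 of 13 thymocyte genes in the WT batch 2 cell. The same 5 wells held 9 to 16 of the 18 tuft genes. No doublet caller was run, and whether these wells held more than 1 cell was not tested. The 13 Crlf2-positive cells differed from these: none had an Il7r read, 2 were positive for Il2rg, and they held 9 to 18 tuft genes. At least 2 markers of thymocytes, B cells or dendritic cells were found in 4 of these 13 cells and in 3 of the 4 Il1rl1-positive cells. Of all cells, 37.93%, 32.18%, 13.48% and 18.75% had them in June5, June29, WT batch 2 and Aire-/-.

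**Figure D2:**
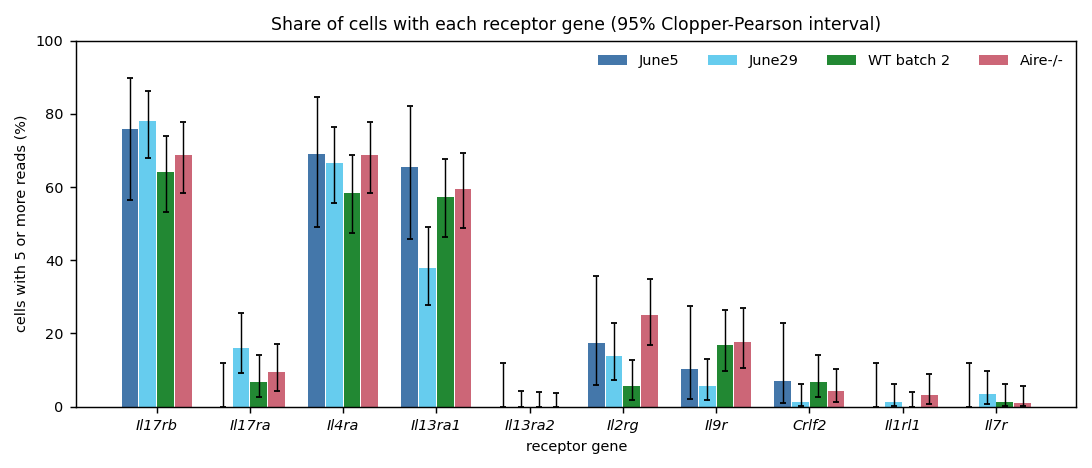
Share of cells with 5 or more reads of each receptor gene (vertical axis, percent) by gene and set, as bars from 0 with 95% Clopper-Pearson intervals. Il17rb, Il4ra and Il13ra1 lie between 37.93% and 78.16%, and no other gene is above 25% in any set.

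Ordered by CPM per kilobase of exon, which allows genes to be compared, Il17rb, Il13ra1 and Il4ra took the leading places in every set and each of the others was under 10. In June5, June29 and Aire-/- the order was Il17rb (103.1, 92.32 and 59.77), Il13ra1 (67.43, 46.02 and 55.65) and Il4ra (36.79, 30.71 and 46.52). In WT batch 2 Il13ra1 led with 78.18 (76.99 to 79.39), ahead of Il17rb with 66.52 (65.44 to 67.63) and Il4ra with 40.49 (39.82 to 41.17). Below them came Il2rg in June5 (9.546), June29 (8.44) and Aire-/- (7.518) and Il9r in WT batch 2 (8.315). The counting intervals of these neighbours did not touch, but with 1 pool a set no spread across animals stands behind the order. Lower down, Il17ra (1.142 to 1.317) and Crlf2 (0.7692 to 1.145) overlapped in Aire-/-, Il13ra2 and Il1rl1 overlapped in June29, and Il13ra2, Il17ra, Il1rl1 and Il7r were all at 0 in June5. Among protein-coding genes with a read, the leading 3 stood in the 89.7 to 97.8 percentile per kilobase. Coding genes found in 50% of cells or more made up 12.4%, 7.45%, 9.22% and 12.7% of those with a read in the 4 sets.

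The 50-cell well of each genotype gave a further reading of the same genes. The wild-type well had 305.3 CPM of Il17rb (266.3 to 348.5), 206.8 of Il13ra1 (174.9 to 242.8) and 134.6 of Il4ra (109.2 to 164.2). In the Aire-/- well the values were 444.8 (390.3 to 504.7), 144.5 (114.3 to 180.4) and 122.3 (94.59 to 155.6). Il17ra had 3 reads in the wild-type well and none in the other, out of 720527 and 539621 gene reads. Il7r stood at 15.27 CPM (11 reads) and 11.12 CPM (6 reads) in these wells, above its summed level in WT batch 2 (2.81) and in the single cells labelled Aire-/- (0.6221). The no-cell well of batch 1 had 9892 gene reads in all, with 5 of Il17rb, 1 of Il4ra and none of the other 8 members. Those 5 reads (505.5 CPM, 164.1 to 1179.6) reach the count by which a cell is called positive for Il17rb. The well lies just under the 10000 gene reads asked of a kept well.

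Pairing of chains within a cell was then counted for 10 receptor complexes, with 5 or more reads of each chain required. For the IL-25 receptor, June5 had no cell of 29 with both Il17rb and Il17ra, June29 had 12 of 87 (13.79%, 7.335 to 22.85), WT batch 2 had 4 of 89 (4.494%, 1.238 to 11.11) and Aire-/- had 7 of 96 (7.292%, 2.982 to 14.45). Il17rb without Il17ra was the usual state, in 22, 56, 53 and 59 cells, whereas Il17ra without Il17rb was found in 0, 2, 2 and 2. Of all 29 Il17ra-positive cells, 23 were also positive for Il17rb (79.31%), beside 70.76% of all cells. June29 was sequenced most deeply, and after thinning to 231697 reads its share with both chains was 10.59% (9 of 85 cells), against 3.797% in WT batch 2 and 4.762% in Aire-/-. Counting a single read as positive gave 25.3% in June29 and 14.6% in Aire-/-. By either count most Il17rb-positive cells had no Il17ra, and at this depth an unseen transcript cannot be told apart from an absent one.

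The type II IL-4 and IL-13 receptor was the complex most often found complete. June5 had both Il4ra and Il13ra1 in 15 of 29 cells (51.72%), June29 in 27 of 87 (31.03%), WT batch 2 in 30 of 89 (33.71%) and Aire-/- in 43 of 96 (44.79%). Il13ra1 was found in 75% of the Il4ra-positive cells and 44.44% of the Il4ra-negative cells in June5, in 46.55% and 20.69% in June29, in 57.69% and 56.76% in WT batch 2 and in 65.15% and 46.67% in Aire-/-. Il13ra1 was thus more frequent among Il4ra-positive cells in 3 sets and nearly equal in WT batch 2, but the counting intervals of the shares overlapped in each set, in June29 between 33.34 and 39.72%. Il4ra-positive cells also had more reads in June5 (median 630052 against 459020), June29 (1168191 against 992630) and WT batch 2 (619769.5 against 518612), and fewer in Aire-/- (633679 against 658531.5). After thinning the shares were 41.18% and 17.65% in June29 and 65.45% and 51.72% in Aire-/-.

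The type I IL-4 receptor, Il4ra with Il2rg, was found in 3 of 29 cells (10.34%), 7 of 87 (8.046%), 3 of 89 (3.371%) and 15 of 96 (15.62%) in June5, June29, WT batch 2 and Aire-/-. Il2rg was no more frequent among Il4ra-positive than Il4ra-negative cells in June29 (12.07% and 17.24%) or Aire-/- (22.73% and 30%). Over all sets, 9.302% of cells had the type I chains and 38.21% the type II chains. Il9r with Il2rg was seen in 8 of 301 cells, so that 32 of 40 Il9r-positive cells had no Il2rg by this count. Il2rg was thus found in 20% of Il9r-positive cells, beside 15.28% of all cells. In WT batch 2, the set with most Il9r, none of 15 Il9r-positive cells (0 to 21.8%) was positive for Il2rg, beside 6.757% of 74 others. The shares were 66.67% of 3 Il9r-positive and 11.54% of other cells in June5, and 20% of 5 and 13.41% in June29. In Aire-/- they were 29.41% of 17 and 24.05%.

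The other complexes were seldom or never complete. Il7r with Il2rg was seen in 5 cells, the wells described above, Il17ra with Il17rc in 3 and Il17ra with Il17re in 5. Crlf2 and Il7r, the TSLP receptor, were found together in 0 of 301 cells, and Il1rl1 with Il1rap, the IL-33 receptor, in 0 of 301, each of which allows up to 0.9967% of cells with 5 or more reads of both chains. With 13, 5 and 4 cells positive for Crlf2, Il7r and Il1rl1, these counts do not limit how many cells express both chains. Il2rb with Il2rg, which bind IL-2 and IL-15, were found in 1 cell.

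**Figure D3:**
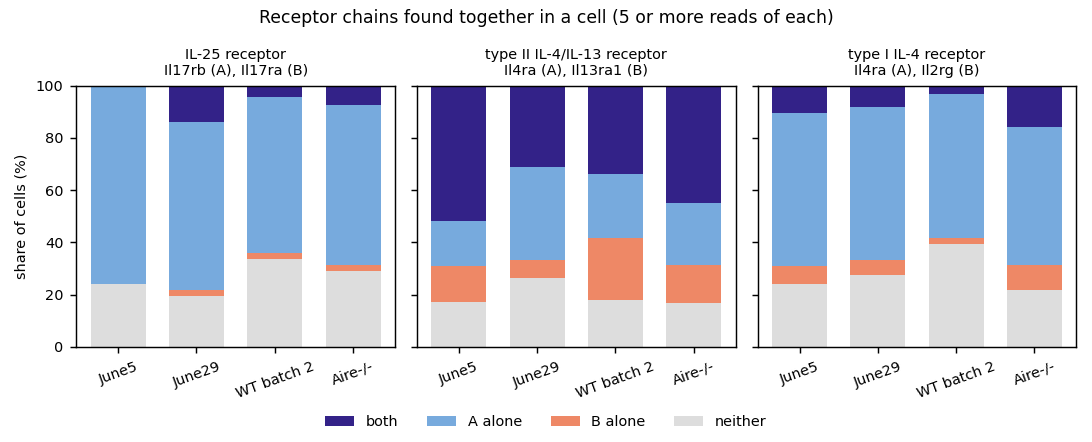
Share of cells (vertical axis, percent) with both chains, chain A alone, chain B alone or neither, in each set (horizontal axis), for 3 receptors. The dark segments show both chains in 0% to 13.79% of cells for the IL-25 receptor, 31.03% to 51.72% for the type II receptor and 3.371% to 15.62% for the type I receptor.

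Counted per cell, the median number of the 10 genes found was 3 in June5 and 2 in June29, WT batch 2 and Aire-/-. Cells with none numbered 2 of 29, 7 of 87, 7 of 89 and 5 of 96. June5 had 13 cells (44.83%) with all of Il17rb, Il4ra and Il13ra1, June29 had 26 (29.89%), WT batch 2 had 25 (28.09%) and Aire-/- had 31 (32.29%). Il25, the ligand of IL-17RB and the gene that the sort reports on, was found in 55.17%, 37.93%, 49.44% and 62.5% of cells. Il17rb was found in 75% of Il25-positive and 76.92% of other cells in June5, in 78.79% and 77.78% in June29, in 72.73% and 55.56% in WT batch 2 and in 73.33% and 61.11% in Aire-/-. The shares lay close together in the June sets and were higher in Il25-positive cells in batch 2. Il25-positive cells had more reads in every set, with medians of 844245.5 against 487319 in June5, 1416717 against 1113355 in June29, 648030.5 against 518612 in WT batch 2 and 689987.5 against 618608 in Aire-/-.

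Over cells thinned to the same depth, the genes whose counts were most like each receptor's were ranked by the mean of the Spearman rho within the 4 sets, among 4309 genes found in at least 20% of cells of every set. For Il17rb they were Strip2 (0.419), Laptm5 (0.397), Sdc4 (0.386), Adgrg6 (0.34) and Ptpn18 (0.337), each with a positive rho in all 4 sets. For Il13ra1 they were Rgs13 (0.443), Bpgm (0.43), Tspan6 (0.425), Alox5ap (0.392) and Tmem176b (0.39), again positive in all sets, among them Rgs13, a regulator of G protein signalling on the list of tuft genes, and Alox5ap, which serves leukotriene synthesis. For Il4ra the values were lower, with Cadps2 (0.313), Gnl1 (0.276), Usf2-ps1 (0.247) and Mcub (0.246), and Usf2-ps1 was at -0.0225 in June29. Among the receptors, Il17rb and Il13ra1 had a mean rho of 0.213, above 97.6% of the candidate genes for Il17rb and 91.4% for Il13ra1. Within sets it ran from 0.0544 in Aire-/- to 0.333 in June5. Il17rb and Il4ra had 0.126, above 87.9% of the candidates for Il17rb and 88.2% for Il4ra. Il4ra and Il13ra1, which pair in the type II receptor, had 0.0757, with -0.0939 in Aire-/- and 0.265 in June5. That mean was above 67.9% of the candidates for Il4ra and 48.3% for Il13ra1. These values are descriptions over 271 cells that share pools and sets.

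Between the cells labelled Aire-/- and WT batch 2, none of the 10 receptor genes passed the rule used for a difference in size, which asked that the larger level reach 20 CPM, that the log2 fold reach 1 after 1 CPM was added to both levels, and that the positive shares lie 15 points apart the same way. The rule is not a test. It called 1.42% of the 8267 genes at 20 CPM or more in this comparison. The log2 folds were -0.15 for Il17rb, 0.20 for Il4ra, -0.49 for Il13ra1 and -0.42 for Il9r, the 4 members at 20 CPM, with a median of -0.29 against -0.03 for all genes that could be called. Within plates the folds of Il17rb (-0.50 and 0.26) and Il4ra (0.46 and -0.07) changed sign, while those of Il13ra1 (-0.28 and -0.71) and Il9r (-0.10 and -0.68) were negative on both.

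Il2rg came nearest to the rule in that comparison. It was found in 24 of 96 cells labelled Aire-/- (25%, 16.72 to 34.88) and in 5 of 89 WT batch 2 cells (5.618%, 1.849 to 12.63), a gap of 19.4 points, with 17.94 and 9.18 CPM and a log2 fold of 0.90. On plate 1 the counts were 11 of 48 and 2 of 48 cells and on plate 2 13 of 48 and 3 of 41, with folds of 0.81 and 0.88. After thinning the shares were closer, 16.7% and 5.06%, a gap under the 15 points of the rule, and with a single read as positive they were 30.21% and 10.11%. The 50-cell wells did not show the difference, with 2 reads of Il2rg in the Aire-/- well (3.706 CPM, 0.4489 to 13.39) and 5 in the wild-type well (6.939 CPM, 2.253 to 16.19). The wild-type sets of batch 1, at 17.24% and 13.79%, lay between these 2 values. Leukocyte markers did not move together. Cells with 2 or more of the 5 general leukocyte genes made up 81.25% of Aire-/- and 68.54% of WT batch 2 cells. By share of cells, Laptm5 (86.46% and 77.53%) and Rac2 (86.46% and 76.4%), found in most tuft cells, were higher in Aire-/-. Ptprc (28.12% and 29.21%), Cd52 (11.46% and 12.36%) and Coro1a (3.125% and 4.494%) were not. The summed level of 13 thymocyte genes was 9.65 CPM (6 of 13 at 0) and 263.2 CPM (2 of 13 at 0). Few wells carried that level: only 1 of 96 and 2 of 89 cells had 2 or more thymocyte genes, and Trbc2, the highest of them in WT batch 2 (86.81 CPM), was found in 1 cell there. In summed level, 8 B cell genes were higher in Aire-/- (309.9 and 277.7 CPM), as were 9 dendritic cell and macrophage genes (126.1 and 54.59 CPM). Cells with 2 or more B cell genes made up 16.67% and 11.24%. For dendritic cell and macrophage genes they made up 1.042% and 2.247%. Among cells without thymocyte, B cell or dendritic cell markers, Il2rg was found in 15 of 78 Aire-/- cells (19.23%) and 2 of 77 WT batch 2 cells (2.597%), a choice of cells made after the data were seen. Among the cells with such markers, Il2rg was found in 9 of 18 (50%) and 3 of 12 (25%), at 35.49 and 50.9 CPM. The cells without these markers gave a log2 fold of 2.40, and over all cells the fold was 0.57 once the highest cell was left out. Among the 14 and 22 cells without 2 markers of any haematopoietic list, general leukocyte genes included, the direction turned, with 0.213 and 1.14 CPM and a fold of -0.82.

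Between wild-type sets with the same genotype label, 1 receptor gene passed the rule in 1 of the 3 comparisons. Il17ra was higher in June29 than in June5 (28.15 CPM against no read), at least 234.7-fold when June5 is set to 3 counts over the set, where the rule called 5.2% of 8358 genes. The call was lost when cells with thymocyte, B cell or dendritic cell markers were left out, where 11.9% of June29 cells were positive at a log2 fold of 4.82, and when cells with a high mitochondrial share were let in, where 14.7% were at 4.74. June5 had no positive cell in either. It was also lost in the 5 and 13 cells without markers of any haematopoietic list (log2 fold 1.36). After thinning 12.9% were positive. WT batch 2 against June5 and WT batch 2 against June29 gave no receptor past the rule, where it called 5.88% of 8561 and 6.06% of 8513 genes. These comparisons share sets and are not independent of each other.

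Some receptors met a part of the rule only. Il9r was higher in WT batch 2 than in June5 and June29 by a log2 fold of 2.11 and 2.17, but the shares of cells lay 6.51 and 11.1 points apart. By the mean of per-cell CPM these folds were 0.95 and 1.11. Every Il9r-positive cell of batch 2 had 2 or more markers of a haematopoietic list, general leukocyte genes included. So did 75.28% of all WT batch 2 cells and 85.42% of all Aire-/- cells. Among the cells without such markers (22 of WT batch 2, 5 of June5, 13 of June29) the folds were 0.11 and -5.08, the latter against a single positive June29 cell. The 50-cell wells had 5.551 CPM (4 reads, wild-type) and 9.266 CPM (5 reads, Aire-/-) of Il9r. Il13ra1 was found in 27.6 points fewer cells in June29 than in June5 at a log2 fold of -0.55, and in 19.4 points more cells in WT batch 2 than in June29 at 0.76, a gap that fell under the 15 points of the rule with a single read as positive (69.7% and 62.1%). The fold of Il2rg in WT batch 2 was -1.22 against June5 and -1.05 against June29, and without the June5 cell with most reads the former became 0.34. The June sets were labelled batch 1 and the other wild-type set batch 2. With 1 pool in each, set and batch cannot be told apart.

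**Figure D4:**
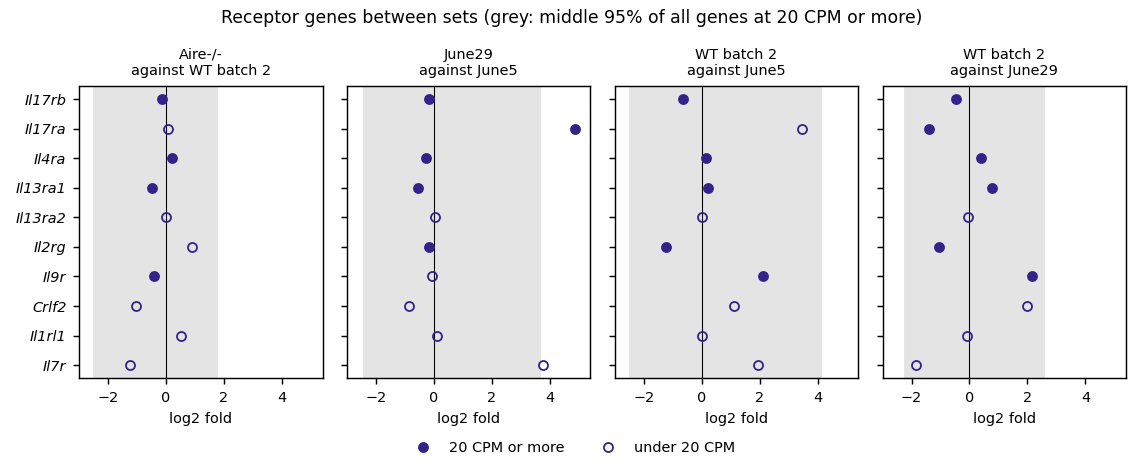
Log2 fold with 1 CPM added (horizontal axis) of each receptor gene (vertical axis) in 4 comparisons, filled where the higher set had 20 CPM or more, over a grey band that holds the middle 95% of all genes at that level. In Aire-/- against WT batch 2 every receptor lies inside the band. In June29 against June5, Il17ra (4.87) and Il7r (3.77, under 20 CPM) lie outside it. Both folds rest on the added 1 CPM because June5 had no read of either gene.

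The signalling genes downstream of the receptors were mostly present. Of 12 JAK-STAT genes, each had reads in every set, and a set had 2 to 4 of them in 50% of its cells or more. Jak1, which binds IL-4R alpha, stood at 126.2, 162.1, 161.1 and 178.6 CPM in June5, June29, WT batch 2 and Aire-/-. Stat6, the transcription factor of IL-4 and IL-13, stood at 114.5, 145.4, 97.73 and 131.9 CPM in the same order. Jak3, the kinase that attaches to the gamma chain, was scarce like its receptor, at 0.4397, 13.14, 6.649 and 16.63 CPM. The phosphatase gene Ptpn6 (SHP-1), which dampens cytokine receptor signals, led the list per kilobase of exon (377 to 677.4 CPM per kb), stood at 1898.0, 1056.3, 1625.3 and 1696.2 CPM and was found in 93.1% to 100% of cells.

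Of 15 genes of IL-17 and IL-1 signalling, all had reads in every set, yet at most 3 were found in 50% of cells or more. Traf3ip2, the adaptor that the IL-25 receptor recruits, stood at 52.89, 24.03, 58.26 and 36.15 CPM. Rela, a subunit of NF-kappa-B and the highest of the list per kilobase (44.12 to 57.66 CPM per kb), stood at 177.1, 135.5, 159.6 and 156.2 CPM. Among 8 negative regulators the highest per kilobase was Nfkbia, the NF-kappa-B inhibitor, at 614.2, 761, 626.9 and 706.9 CPM. Socs1, which restrains JAK signals, was found in 48.28%, 37.93%, 59.55% and 73.96% of cells.

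Of the 12 partner chains outside the list, none was found in 50% of cells in any set. Il17rc and Il17re, which with Il17ra form the receptors for IL-17A and IL-17C, stood at 49.37, 26.02, 51.22 and 13.12 CPM and at 31.26, 28.66, 31.59 and 29.54 CPM. Per kilobase of exon, each was above Il17ra in every set, with 18.48, 9.741, 19.18 and 4.912 CPM per kb for Il17rc and 5.327, 4.884, 5.383 and 5.035 for Il17re. Of 12 ligand genes, Il25 was the highest per kilobase in every set, at 70.44, 42.37, 72.9 and 96.14 CPM, Il9 and Il17a had no read in any set, and Il4 and Il13 stood at 0 to 1.606 CPM.

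None of the genes on these 5 lists passed the rule between Aire-/- and WT batch 2, where 1.42% of all genes did. In June29 against June5, where 5.2% of all genes passed, 1 of the 11 JAK-STAT genes at 20 CPM passed as higher (Ptpn11, log2 fold 2.15), 2 of 14 IL-17 and IL-1 signalling genes as lower (Traf3ip2, -1.11, and Traf2, -1.68) and 1 of 8 negative regulators as lower (Socs3, -1.45). In WT batch 2 against June5, where 5.88% of all genes passed, 2 JAK-STAT genes were lower (Tyk2, -1.30, and Stat3, -1.37), with 3 IL-17 and IL-1 signalling genes (Traf2, Nfkbiz and Irak1, -1.58, -1.10 and -1.84) and Socs3 (-1.22). In WT batch 2 against June29, where 6.06% passed, Jak2 was lower (-1.95) and Socs1 higher (1.62). The median folds of the lists in these comparisons lay between -0.35 and 0.36 for the 3 signalling lists, against medians of -0.11 to 0.16 over all genes.

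**Figure D5:**
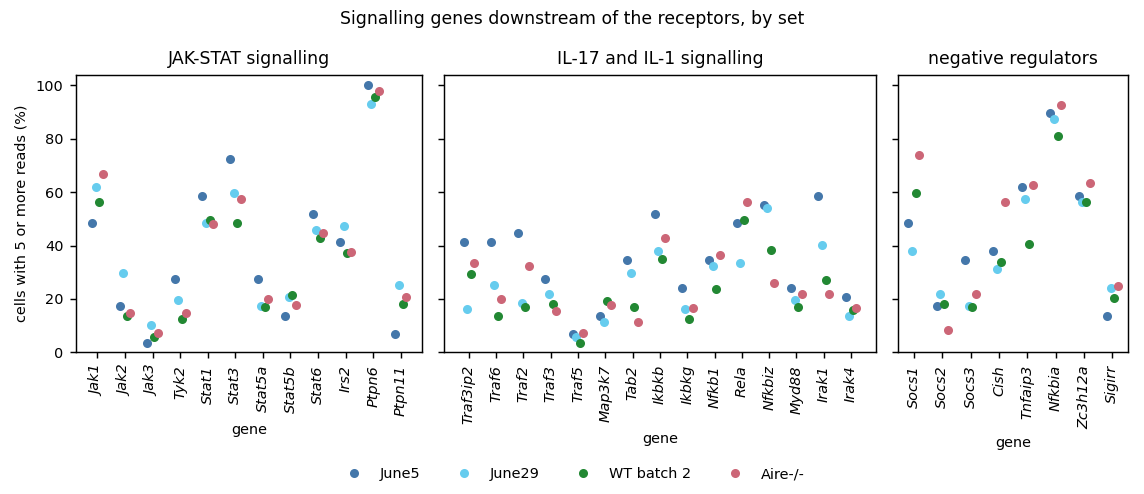
Share of cells with 5 or more reads (vertical axis, percent) of 35 signalling genes (horizontal axis) in 3 lists, with 1 point per gene and set. Ptpn6 lies at 93.1% or above in every set and Nfkbia at 80.9% or above, and Jak3 and Traf5 lie near the bottom.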

How the data were processed

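The values used are deposited counts, the whole reads assigned to each gene in each well, with WT and Aire-/- wells in separate tables. Their makers, per the submitters' processing notes, used STAR, Subread and featureCounts 1.5.3, R 3.4.0 and build GRCm38. The annotation, the strand setting and how shared reads were treated are not given in sources used here. A deposited score per gene and well (-26.9 to 115.1, with no stated origin) served only to list wells, and of the deposited sample table only the authors' plate labels were used.

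Gene IDs were named with GENCODE M21. A well was kept with 10000 gene reads, 1000 genes and at most 20% mitochondrially encoded reads: 301 of 314 single-cell wells passed. Counts were summed per set and scaled to gene reads (CPM, exact Poisson interval). A cell was positive with 5 reads (Clopper-Pearson interval). Without molecular identifiers, reads are not independent molecules, so intervals cover counting error only. A count of 0 was read as at most 3 counts. The level of confidence was 95%. Cells were thinned to the 10th percentile of gene reads, 231697, which 271 cells reached.

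No test was made, since each set is 1 pool. The size rule was checked on simulated cells. Markers of a list were said to be held with 2 or more positive genes. All 10 members are named in every set. Up to 4 genes of a pathway list are named, those highest in CPM or past the rule, and others (Jak1, Stat6, Jak3, Traf3ip2, Socs1, Il17rc and Il17re) were added for their role after their values were seen. The 5 genes most like each member found in 20% of cells of every set are named, except 1 that is not reported here. Members and lists were chosen with earlier results of these data known. Alternatives varied the cells, the read threshold, depth, scaling (TMM of edgeR 4.0.16, DESeq2 1.42.0 size factors) and plates. Analyses used Python 3.11.15, scipy 1.17.1 and R 4.3.3.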

Additional observations from a re-analysis of the deposited data

How the results depend on the processing

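The receptor genes past the size rule numbered 0 in Aire-/- against WT batch 2, 1 in June29 against June5, and 0 in each comparison of WT batch 2 with a June set, and 35 of 42 alternative counts were the same. Leaving out cells with 2 markers of any haematopoietic list, which kept 5, 13, 22 and 14 cells because Laptm5 and Rac2 are found in most tuft cells, gave 1 gene for Aire-/- against WT batch 2 (Il13ra1), 1 for WT batch 2 against June5 (Il17rb) and 3 for WT batch 2 against June29, and Il13ra1 took the place of Il17ra in June29 against June5. Leaving out cells with thymocyte, B cell or dendritic cell markers, a setting chosen after seeing the data, gave 0 for June29 against June5 and 1 for WT batch 2 against June5 (Il2rg). No mitochondrial limit gave 0 for June29 against June5, and the mean of per-cell CPM gave 1 for WT batch 2 against June29 (Il13ra1). TMM and DESeq2 scaling, the CPM limit and the plates changed no count. The cause was not tested.

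Both IL-25 receptor chains were found in 25.3% of June29 and 14.6% of Aire-/- cells with a single read as positive, and in 0% of the 13 June29 and 0% of the 22 WT batch 2 cells left without haematopoietic markers. Both type II receptor chains were found in 50.6% of June29, 50.6% of WT batch 2 and 56.2% of Aire-/- cells with a single read, and in 20% of 5 June5, 7.69% of 13 June29 and 14.3% of 14 Aire-/- cells without haematopoietic markers. Of 388 alternative log2 folds of receptor genes, 377 kept their side of the rule, 8 passed it newly and 3 no longer passed. Only Il17ra in June29 against June5 had passed, and its fold stayed positive. Folds that had not passed could change sign and still count among the 377. Il2rg in Aire-/- against WT batch 2, for example, went from 0.896 to -0.818 in the cells left without haematopoietic markers. No paired analysis was possible because each set is 1 pool and no result comes from a test.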
